A study of Mus musculus with 29 samples.

Results

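Liver of mice at 10 months of age was compared between animals whose dams had received tributyltin (TBT) in drinking water and animals labelled VEH, read here as the vehicle control. The comparison used the 5 TBT and 6 VEH libraries whose labels give liver as the tissue and 10 months as the age, 11 of the 29 libraries of the series, fitted without the 11 libraries of 5-month liver and the 7 of adenoma. Exposure spanned gestation and lactation, so the offspring themselves were exposed through the dam. RNA was total RNA from frozen tissue, read by stranded RNA sequencing, and each library gave a read count for 22028 coding genes.

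The labels used here give no dose, strain, sex or number of litters, and do not say that each library was a separate animal. The p-values below therefore measure the spread between these samples. The replicate numbers of the TBT livers (2, 4, 8, 9 and 10) and of the TBT adenomas (1, 3, 5, 6, 7, 11 and 12) did not overlap, so the TBT livers may come from exposed animals for which no adenoma was sequenced. The labels are silent on that. For TBT liver 9, the title and the column code gave different numbers, and the number of the code was used. Y-linked Ddx3y averaged 89.4 ± 6.72 CPM (read counts put on the same library size) in TBT liver (SD, n = 5) and 89.7 ± 2.80 in VEH liver (SD, n = 6), and ranged from 82.4 to 100.1 over the 11 libraries.

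Tributyltin is an organotin that binds the retinoid X receptors (RXR) and peroxisome proliferator-activated receptor gamma (PPARG), nuclear receptors that pair on DNA and switch on genes of fat storage. In liver, RXR also partners the receptors for oxysterols, bile acids, fatty acids and foreign compounds, and so touches most of hepatocyte metabolism. Many liver genes also follow the time of day and, in males, the pulsed release of growth hormone, so that liver RNA varies between animals without any exposure.

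No gene differed between the arms at an adjusted p below 0.05 in edgeR's quasi-likelihood test over 12647 genes (0%). The smallest adjusted p was 0.425, shared by 6 genes. At an unadjusted p below 0.05 there were 986 genes (7.8%), of which 582 (4.6%) were higher in TBT liver and 404 (3.19%) lower. Groups that did not overlap, meaning that every TBT library lay above or below every VEH library, were seen for 51 genes on the high side (0.403%) and 42 on the low side (0.332%). DESeq2 passed 16 genes on the same counts and limma-voom passed 0, with 1066 and 977 genes at an unadjusted p below 0.05. The 16 included Tmem51, Chic1, Cdc42ep1, Nat8f5, Lars2 and mt-Co2.

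The fit was precise for most genes. The median standard error of a log2 fold change was 0.112, and the 95% interval lay within 2-fold in either direction for 11707 genes (92.6%) and within 1.5-fold for 9533 (75.4%). A fitted difference beyond 2-fold was seen for 51 genes, 28 higher and 23 lower. Library totals ran from 25973945 to 32850438 counts in TBT liver and from 25714194 to 30362835 in VEH liver. Albumin (Alb), the main secreted protein of hepatocytes, ran from 69475 to 80652 CPM in TBT and from 74848 to 99163 in VEH liver. Sis and Alpi, which mark intestine, were at 0 in all TBT livers. Of the 5-month livers, used here only to compare the ages, 4 stood apart on a scale set over all 29 libraries. TBT liver 2 of that age held Sis at 668 CPM (at most 0.326 in the other 5-month livers), and TBT liver 4 and VEH livers 4 and 6 held Ly6d, a gene high in the adenomas, at 95.0, 72.9 and 123 CPM (1.18 to 8.09 in the others). Comparisons between the ages are given with and without these 4 libraries.

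The genes with the smallest p are given first. Tmem51, a transmembrane protein gene on chromosome 4 (142030992 to 142084304, minus strand, GRCm38), was at 7.37, 7.71, 6.50, 6.00 and 6.70 CPM in TBT livers 2, 4, 8, 9 and 10, against a lowest, median and highest of 3.11, 3.88 and 5.08 in VEH liver. All 5 TBT values lay above all 6 VEH values. The log2 difference was 0.79 (SE 0.142; edgeR adjusted p = 0.425).

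Cdc42ep1, whose product acts downstream of CDC42, a regulator of actin, was at 22.5, 25.0, 16.6, 18.9 and 18 CPM in the TBT livers in the same order, against 11.7, 13.7 and 15.3 in VEH liver as lowest, median and highest. The groups did not overlap, and TBT livers 2 and 4 were the highest. Its log2 difference was 0.56 (SE 0.106; edgeR adjusted p = 0.425). Fgfr2, a receptor for fibroblast growth factors, was at 46.9, 56.3, 51.9, 45.3 and 48.9 CPM against 32.0, 39.1 and 44.6, with no overlap. Mapkapk3, a kinase activated by p38, was at 10.4, 6.43, 6.16, 6.99 and 9.40 CPM against 3.14, 4.39 and 5.92, again with no overlap. Their log2 differences were 0.37 (SE 0.0874) and 0.79 (SE 0.188; edgeR adjusted p = 0.492 for both).

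Among those with lower levels, Nat8f5, a gene of the N-acetyltransferase 8 family, was at 5.11, 6.18, 7.36, 8.38 and 8.22 CPM in TBT livers against 9.49, 13.0 and 16.8 in VEH liver. Chic1, an X-linked gene, was at 3.76, 2.19, 4.36, 3.68 and 3.46 CPM against 5.85, 6.08 and 8.53. Zfyve1, which encodes a FYVE-domain protein of the endoplasmic reticulum and lipid droplets, was at 80.3, 81.6, 99.1, 90.2 and 104 CPM against 107, 116 and 119.7. None of these 3 genes overlapped between the arms. The log2 differences were -0.88 (SE 0.171) for Nat8f5 and -0.88 (SE 0.159) for Chic1 (edgeR adjusted p = 0.425 for both), and -0.34 (SE 0.0738) for Zfyve1 (edgeR adjusted p = 0.492).

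Lars2, the mitochondrial leucyl-tRNA synthetase, was at 35.9, 33.4, 49.5, 34.7 and 38.2 CPM in TBT livers, against 49.7, 80.3 and 117 in VEH liver. The groups did not overlap, although TBT liver 8 came within 1 CPM of the lowest VEH liver. TBT less VEH gave a log2 difference of -1.05 (SE 0.192; edgeR adjusted p = 0.425). At 5 months, in the fit of the 22 liver libraries, the same contrast was at 6.86 (SE 1.27; edgeR adjusted p = 0.0312), with the opposite sign. In TBT liver 4 of 5 months Lars2 was at 26921 CPM on the scale of all 29 libraries, against 13.3 to 701 in the other TBT livers and 8.34 to 195 in the VEH livers of that age. Whether all counts at Lars2 came from its own messenger RNA was not tested. Without the 4 libraries of 5 months that stand apart, the 5-month contrast was 2.54 (SE 1.03; edgeR adjusted p = 0.264), so the call was lost. The difference between the ages was -7.92 (SE 1.79; edgeR unadjusted p = 0.000909, adjusted p = 0.275) with all 22 libraries and -3.60 (SE 1.32; edgeR unadjusted p = 0.0175, adjusted p = 0.331) without the 4.

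Of the other genes named for a small p, Synpo (0.58), Slfn8 (0.66), Eva1b (0.51), Nedd9 (0.44), Hmga1 (0.42) and Igtp (0.29) were higher on the log2 scale, and Zbtb40 (-0.47) and Bag3 (-0.40) lower, each without overlap between the arms. Emp2 was higher by 0.57 with overlapping groups. Nedd9 and Synpo encode proteins of focal adhesions and the actin cytoskeleton, Igtp an interferon-inducible GTPase, and Bag3 a co-chaperone. The adjusted p was 0.492 for each in edgeR's test.

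**Figure D1:**
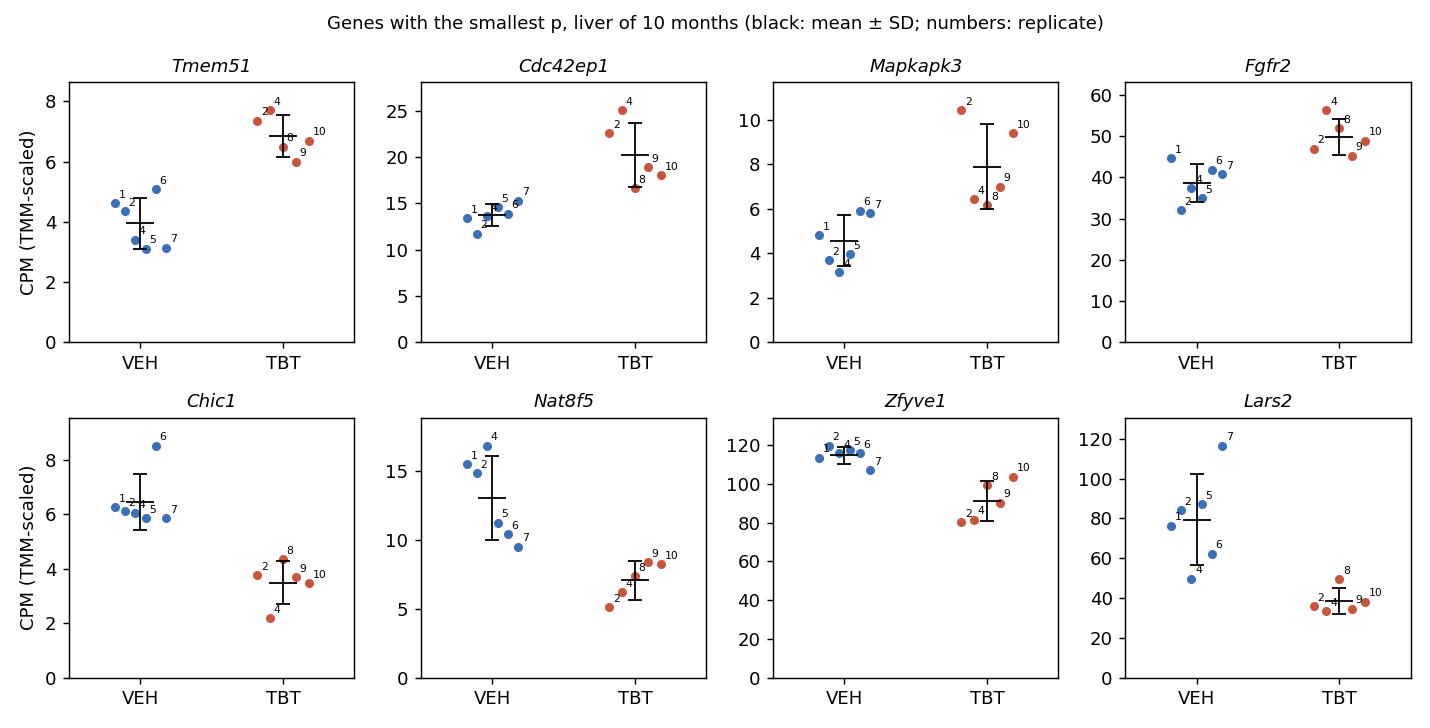
TMM-scaled CPM of 8 of the genes with the smallest p in each VEH (blue) and TBT (red) liver of 10 months, with replicate numbers, the mean and the SD in black. For each gene the points of the arms do not overlap: Tmem51 lies at 6.00 to 7.71 in TBT and 3.11 to 5.08 in VEH, and Lars2 at 33.4 to 49.5 and 49.7 to 117.

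Interferon-stimulated genes, which encode antiviral proteins and the machinery that senses viral RNA, were on average at higher levels in TBT liver. Of 30 tested members, 29 had a positive log2 difference, against 52.7% of all genes. Of these members, 14 were higher at an unadjusted p below 0.05 and 0 were lower, against 4.6% and 3.19% of all genes. The median log2 difference was 0.31, beside 0.01 over all genes. No member passed at the adjusted threshold, and the arms of every member overlapped. The summed level of the list ran from 556 to 668 CPM in TBT and from 487 to 620 in VEH liver.

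The core of the interferon-stimulated response element, the letters GAAA, then any 2 bases, then GAAA, on either strand, was searched in the RefSeq windows of 250 bases before to 50 after a start site (GRCm38.p6). It stood in 13 of the 21 members with a window and in 6 of the 10 such members at an unadjusted p below 0.05, against 3.44% of all 32851 windows. A member counted when any of its windows matched, whereas the percentage is a share of single windows. Below are the 250 bases before the start of Isg15, Ifit3 and Oas1a, which are among the members described here, with each match in capitals. Matches can overlap, as the 3 in Isg15 and the 2 in Oas1a do. In Ifit3 the matches read on the other strand. A match of letters is a description and does not show binding.
Isg15, chr4:156200819-156201068, minus strand: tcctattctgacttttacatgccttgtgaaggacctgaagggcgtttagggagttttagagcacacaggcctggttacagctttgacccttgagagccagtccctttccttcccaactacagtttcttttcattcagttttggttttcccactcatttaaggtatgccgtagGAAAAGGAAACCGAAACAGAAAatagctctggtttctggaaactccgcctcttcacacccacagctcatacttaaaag
Ifit3, chr19:34583279-34583528, plus strand: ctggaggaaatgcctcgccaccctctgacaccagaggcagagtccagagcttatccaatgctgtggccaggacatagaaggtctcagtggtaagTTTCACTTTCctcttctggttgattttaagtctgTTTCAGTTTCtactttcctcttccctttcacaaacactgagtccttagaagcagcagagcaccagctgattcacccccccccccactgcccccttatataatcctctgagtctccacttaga
Oas1a, chr5:120907526-120907775, minus strand: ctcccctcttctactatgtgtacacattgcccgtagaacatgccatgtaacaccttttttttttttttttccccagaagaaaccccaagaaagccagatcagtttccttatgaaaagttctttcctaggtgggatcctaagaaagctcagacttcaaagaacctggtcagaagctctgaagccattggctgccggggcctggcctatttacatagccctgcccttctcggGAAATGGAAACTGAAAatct

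Isg15, a ubiquitin-like protein that is attached to other proteins after interferon, was at 3.99, 3.73, 2.59, 2.81 and 3.68 CPM in TBT livers 2, 4, 8, 9 and 10, against 1.92, 2.22 and 2.65 as lowest, median and highest in VEH liver. All TBT livers but liver 8 lay above every VEH liver. The fitted log2 difference came to 0.59 (95% interval 0.27 to 0.90; edgeR unadjusted p = 0.00124, adjusted p = 0.492). Ifit3, which binds antiviral signalling proteins, was at 8.85, 6.80, 8.15, 5.33 and 8.57 CPM against 3.38, 5.66 and 6.26, with TBT liver 9 inside the VEH range. Oas1a, a sensor of double-stranded RNA, was at 3.60, 2.70, 3.83, 2.67 and 2.35 CPM against 1.38, 2.21 and 2.63, with TBT liver 10 inside the VEH range. The log2 differences were 0.54 (SE 0.179) for Ifit3 and 0.53 (SE 0.194) for Oas1a.

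Among the signalling members, Irf9, a transcription factor that acts downstream of the interferon receptors, had a log2 difference of 0.24 (SE 0.0861). Stat2, which acts with IRF9, had a log2 difference of -0.07 (edgeR unadjusted p = 0.429). Usp18, which removes ISG15 from proteins and damps the receptor, was at 10.5, 11.1, 4.96, 6.00 and 9.05 CPM against 4.60, 5.65 and 6.43. TBT livers 8 and 9 were inside the VEH range for Usp18. Xaf1, Rtp4, Parp14, Oasl1, Ddx58 and Gbp2 were also among the 14, with log2 differences of 0.61, 0.50, 0.29, 0.35, 0.32 and 0.42. Irf7, Bst2, Ifi27 and Rsad2 differed by less than 0.1.

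The interferon list had its highest scores in TBT livers 2 and 4, at 0.44 and 0.41 (median over members of log2 CPM less the VEH mean), and its lowest TBT score in liver 9, at 0.10. VEH livers ran from -0.22 to 0.20, so TBT livers 2, 4, 8 and 10 lay above all VEH livers. Without TBT livers 2 and 4, 11 members were at an unadjusted p below 0.05 on the high side and the median was 0.26. The 14 became 8 in the fit with the 5-month livers, 8 in the fit with the adenomas and 5 with the mitochondrial share of counts as a covariate. That share itself averaged 1.38% in TBT and 1.58% in VEH liver, so the covariate takes up part of the contrast. Over all genes, those higher at that p fell as well, from 582 of 12647. They were 108 of 13055, 337 of 13474 and 372 of 12647 in these fits, in the same order. In the fit with the 5-month livers, the median of the list was -0.23 at 5 months and 0.30 at 10 months. The difference between the ages was higher at an unadjusted p below 0.05 for 8 of 30 members, against 8.72% of all genes in either direction. Without the 4 libraries of 5 months that stand apart, it was higher for 10 of 30. In that fit, 1482 of 13115 genes were at that p in either direction. No member passed the adjusted threshold. Xaf1 had the contrasts -0.38 (SE 0.184) at 5 and 0.61 (SE 0.182) at 10 months (edgeR interaction unadjusted p = 0.00096, adjusted p = 0.275).

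MHC class II genes, which present peptides on antigen-presenting cells, had a median log2 difference of 0.27 over 8 tested members, with 7 positive, 2 higher at an unadjusted p below 0.05 and 0 lower, against 4.6% and 3.19% of all genes. Cd74, the invariant chain, was at 61.4, 77.4, 93.4, 70.9 and 82.7 CPM in TBT livers against 55.0, 61.8 and 70.2 in VEH liver. All TBT livers but liver 2 lay above the VEH range. H2-Ab1, a class II beta chain, was at 20.7, 25.5, 37.9, 25.9 and 31.2 CPM against 19.9, 22.5 and 30.2, with wide overlap. The log2 differences were 0.30 (SE 0.100) for Cd74 and 0.27 (SE 0.145) for H2-Ab1 (edgeR adjusted p = 0.537 and 0.693).

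Markers of Kupffer cells and other macrophages, which are the main class II bearing cells of liver together with dendritic cells, had a median log2 difference of 0.15. Of 26 tested markers, 21 had a positive difference, 4 were higher at an unadjusted p below 0.05 (Cd9, Ctss, C1qa and Msr1) and 0 were lower, against 4.6% and 3.19% of all genes. The summed level ran from 874 to 1143 CPM in TBT and from 765 to 1078 in VEH liver. The resident markers Clec4f and Timd4 had log2 differences of 0.16 and 0.15 (edgeR unadjusted p = 0.118 and 0.368). The 4 became 0 in the fit with the 5-month livers, in the fit with the adenomas and with the mitochondrial covariate. They also became 0 without TBT livers 2 and 4, and ran from 1 without TBT liver 4, TBT liver 8, VEH liver 2 or VEH liver 6 to 8 without VEH liver 1. Over all genes, those higher at that p fell from 582 to 108, 337 and 372 with 5-month livers, adenomas and covariate. Without TBT livers 2 and 4 they were 284. In bulk RNA, more cells of a type and more RNA per cell cannot be told apart. T and NK cell markers had 0 of 10 members at an unadjusted p below 0.05 in either direction, and their summed level was 18.6 to 31.9 CPM in TBT and 19.9 to 29.5 in VEH liver.

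Collagen genes of hepatic stellate cells, which lay down scar matrix when activated, were on average higher in TBT liver. Of 33 tested stellate and fibrosis genes, 31 had a positive difference, 11 were higher at an unadjusted p below 0.05 and 0 were lower, against 4.6% and 3.19% of all genes, with a median of 0.19. The 11 became 0 in the fit with the 5-month livers, 0 with the mitochondrial share of counts as a covariate and 7 in the fit with the adenomas. Over all genes, those higher at that p fell from 582 to 108, 372 and 337 in the same order. In the fit of the 11 libraries the called members comprised 9 collagen chains, Sparc and Ccn2. The contractile marker Acta2 was at 2.44 to 4.70 CPM in TBT and 2.15 to 6.51 in VEH liver (log2 difference -0.09, edgeR unadjusted p = 0.766), and the stellate markers Lrat, Des and Reln differed by 0.08, 0.22 and 0.19 (edgeR unadjusted p from 0.267 to 0.628).

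Col1a1, a chain of type I collagen, was at 10.5, 6.72, 4.69, 3.60 and 6.95 CPM in the TBT livers against 3.01, 3.23 and 5.51 in VEH liver. TBT livers 2, 4 and 10 lay above all VEH livers and TBT livers 8 and 9 inside their range. The log2 difference was 0.83 (SE 0.251; edgeR unadjusted p = 0.00562). Col3a1 was at 64.0, 56.1, 45.4, 37.3 and 58.3 CPM against 27.2, 35.4 and 45.0, and Col4a1, of basement membrane, at 58.4, 53.2, 42.9, 42.9 and 65.6 against 37.1, 41.3 and 47.5. Ccn2, a target of TGF-beta and YAP signalling, was at 1.83, 4.53, 4.43, 1.68 and 3.17 CPM against 1.25, 1.90 and 2.61, and livers 2 and 9 lay inside the VEH range. For the list as a whole, VEH liver 7 had a score of 0.40, close to the highest TBT scores of 0.44 (liver 2) and 0.40 (liver 10). Without TBT livers 2 and 4, the count was 3 and the median 0.20.

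In the adenomas, whose levels are on a scale set over all 29 libraries, Col1a1 ran from 27.1 to 70.3 CPM, above the 3.78 to 11.0 of the TBT livers on that scale. The 5-month livers of either arm ran from 0.571 to 109 CPM, with the highest value in TBT liver 4 of that age. Every TBT liver of 10 months thus lay below every adenoma for Col1a1.

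**Figure D2:**
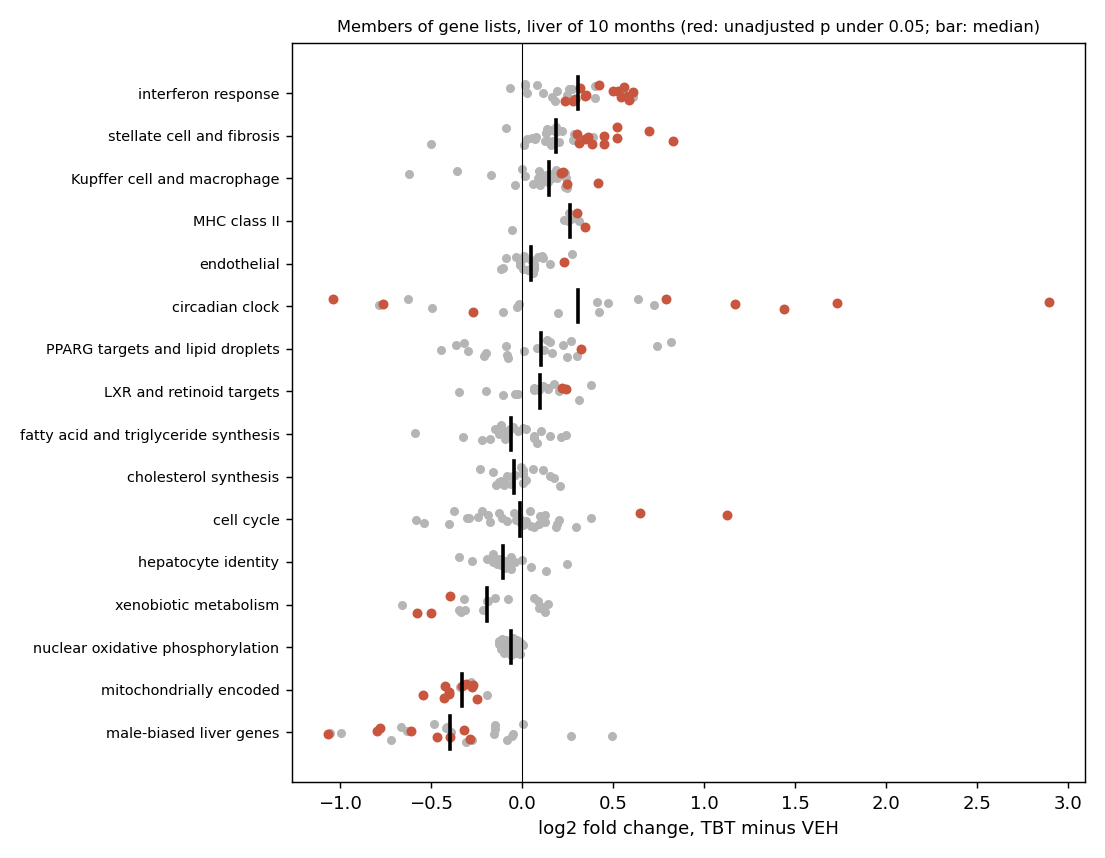
Log2 fold change, TBT less VEH, of each tested member of 16 gene lists, with the list median as a black bar and members at an unadjusted p below 0.05 in red. The red points lie on the positive side for interferon, stellate, macrophage and class II lists, on the negative side for mitochondrially encoded and male-biased genes, and on both sides for clock genes.

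Transcripts of the mitochondrial genome, which encode 13 subunits of the respiratory chain and ATP synthase, were on average lower in TBT liver. All 13 had a negative difference, 10 were lower at an unadjusted p below 0.05, and 6 did not overlap between the arms, against 3.19% and 0.332% of all genes. The median log2 difference was -0.33. In the fit with the 5-month livers, where 110 of 13055 genes were lower at an unadjusted p below 0.05, 0 members were. The median of the list there was also -0.33. By contrast, 31 nuclear genes of the same complexes had a median of -0.06 with 0 at an unadjusted p below 0.05, although 30 of the 31 were negative. Reads of mitochondrial genes can be shared with nuclear copies of mitochondrial DNA, so their levels carry that uncertainty.

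mt-Co2, a subunit of cytochrome c oxidase, was at 31.3, 35.5, 37.3, 37.4 and 39.8 CPM in TBT livers 2, 4, 8, 9 and 10 against 40.9, 48.8 and 52.5 in VEH liver, with no overlap. The arms differed by a log2 value of -0.40 (SE 0.0774; edgeR adjusted p = 0.425). mt-Atp6, of ATP synthase, was at 15.2, 18.7, 19.3, 17.6 and 18.9 CPM against 20.6, 23.4 and 29.4, also with no overlap. mt-Co3, mt-Atp8, mt-Cytb and mt-Nd1 did not overlap either, with log2 differences of -0.27, -0.54, -0.31 and -0.25. mt-Co1, which holds most of the mitochondrial counts, was at 10006 to 11132 CPM in TBT and 10104 to 15342 in VEH liver, and the groups overlapped.

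The share of counts in these genes was 1.38% ± 0.0359 in TBT (SD, n = 5) and 1.58% ± 0.185 in VEH liver (SD, n = 6), and an exact permutation test over all relabellings gave a two-sided p of 0.0476 (adjusted p = 0.0833 over 7 values per library; the smallest p possible is 0.00433). VEH liver 7 had the lowest share of all, 1.30%, so the arms overlapped. The exact permutation p was 0.00794 without VEH liver 7, and 0.0556 to 0.0905 without any other single library. The spread among TBT livers was narrow, 1.34% to 1.42%, and VEH livers ran to 1.81%. The TMM factor, which scales each library, averaged 1.03 in TBT and 0.975 in VEH liver (exact permutation p = 0.0390, adjusted p = 0.0833). TBT less VEH, the mean share differed by -0.197 percentage points before this scaling and -0.285 after it (exact permutation p = 0.0152, adjusted p = 0.0833). The TMM-scaled levels thus show a larger mitochondrial difference than the raw share. The share of counts in the 50 most abundant genes was 35.2% ± 0.844 in TBT (SD, n = 5) and 36.3% ± 0.690 in VEH liver (SD, n = 6; exact permutation p = 0.0455, adjusted p = 0.0833), and the part of RNA composition in the mitochondrial difference was not tested. Without TBT livers 2 and 4, 8 of the 13 members were at an unadjusted p below 0.05 on the low side, with a median of -0.33. At 5 months the same list had a median of -0.66, and 0 of 13 members differed between the ages at an unadjusted p below 0.05. Without the 4 libraries of 5 months that stand apart, the 5-month median was -0.92 and 4 of 13 members differed between the ages at that threshold. Over all genes, 1482 of 13115 did so in that fit, in either direction.

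**Figure D3:**
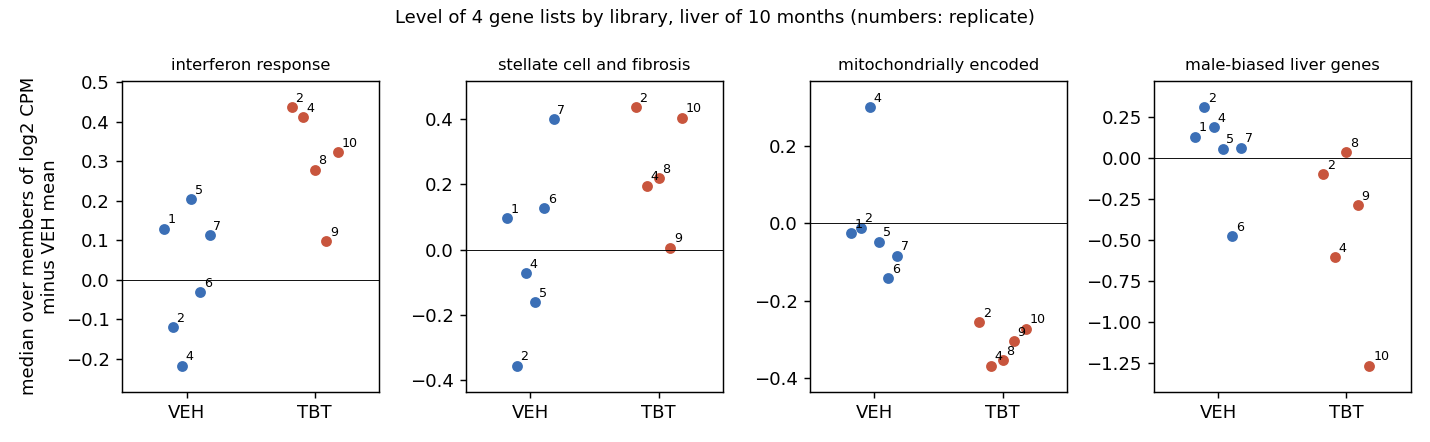
Score of 4 gene lists in each VEH (blue) and TBT (red) liver of 10 months, the median over members of log2 CPM less the VEH mean, with replicate numbers. The mitochondrially encoded list is below every VEH liver in all 5 TBT livers, the interferon list is above every VEH liver in TBT livers 2, 4, 8 and 10, and the male-biased list is lowest in TBT liver 10, at -1.27.

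Genes that are higher in male than in female mouse liver had a median log2 difference of -0.39 in TBT liver, with most members not past any threshold. This programme depends on pulsed growth hormone and includes the major urinary proteins (Mup), which carry pheromones, and several cytochrome P450 genes. Of 28 tested members, 25 had a negative difference, 8 were lower at an unadjusted p below 0.05 and 0 were higher, against 3.19% and 4.6% of all genes. None passed the adjusted threshold, and every member overlapped between the arms. The 8 became 0 in the fit with the 5-month livers, 4 in the fit with the adenomas and 3 with the mitochondrial share of counts as a covariate. Over all genes, those lower at that p fell from 404 to 110, 258 and 249 in the same order. Female-biased genes, by comparison, had 0 of 15 in either direction and a median of -0.04.

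Cyp2d9, a male-specific steroid hydroxylase, was at 1234, 939, 1462, 1263 and 808 CPM in the TBT livers against 1293, 1599 and 1896 in VEH liver. Only TBT liver 8 lay inside the VEH range. The log2 difference was -0.47 (SE 0.158; edgeR unadjusted p = 0.0109, adjusted p = 0.537). Elovl3, which elongates fatty acids, was at 366, 339, 314, 654 and 402 CPM against 328, 752 and 1055, with overlap. Mup21 was at 403, 183, 255, 339 and 200.4 CPM against 315, 489 and 622, and its log2 difference was -0.80 (SE 0.220), but Mup genes are near-identical and share reads.

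The rest of the programme was uneven. Hsd3b5, a male-specific steroid dehydrogenase, was at 356, 152, 254, 241 and 75.7 CPM against 166, 212 and 291, with livers above and below the VEH range. Moxd1 ran from 0.329 to 268 CPM in TBT and from 3.12 to 115 in VEH liver. TBT liver 10 had the lowest list score, -1.27, followed by TBT liver 4 at -0.61 and VEH liver 6 at -0.48, and TBT liver 8 was at 0.03. TBT livers 2, 8 and 9 lay inside the VEH range of scores. Without TBT livers 2 and 4, 6 members were lower at an unadjusted p below 0.05 and the median was -0.35. Leaving out TBT liver 4 alone gave 5. Of 16 tested genes of the growth hormone and IGF pathway, 7 had a positive and 9 a negative difference, with a median of -0.07. At an unadjusted p below 0.05, 1 was higher and 1 lower (6.25% each), against 4.6% and 3.19% of all genes. The lower gene was Ghr, the receptor, at 634 to 772 CPM in TBT and 722 to 926 in VEH liver (log2 difference -0.22, edgeR unadjusted p = 0.0252). Igf1, its main liver product, differed by -0.15 (edgeR unadjusted p = 0.299).

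Several clock genes set TBT livers 2 and 4 apart from the other livers. The circadian clock is a loop in which ARNTL and CLOCK switch on Per, Cry, Nr1d1 and Dbp, whose products feed back, so that Arntl and Dbp peak at opposite times of day. Of 20 tested members, 5 were higher and 3 lower at an unadjusted p below 0.05, against 4.6% and 3.19% of all genes, and the median log2 difference was 0.31. The labels do not give the hour at which tissue was taken.

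Dbp was at 53.6 and 53.5 CPM in TBT livers 2 and 4, but at 4.96, 5.10 and 2.76 in TBT livers 8, 9 and 10, against 0.852, 1.94 and 10.2 in VEH liver. The first 2 livers lay far above all others, and the other 3 inside the VEH range. Arntl was at 10.2 and 9.21 CPM in livers 2 and 4, at 39.6, 28.9 and 27.0 in livers 8, 9 and 10, and at 25.2, 35.4 and 43.2 in VEH liver. Here the same pair of livers lay far below all others. Nr1d1 (40.8 and 36.9 CPM), Per3 (10.1 and 9.10) and Tef (133 and 135) were likewise higher in livers 2 and 4 than in every other library, and Nfil3 (24.5 and 19.7) lower.

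Cry1, a repressor of the loop, was the only member whose arms did not overlap. It was at 5.21, 6.65, 15.8, 14.1 and 14.5 CPM in TBT livers against 16.4, 19 and 39.4 in VEH liver, and livers 2 and 4 were again apart. The fitted log2 difference came to -1.04 (SE 0.350; edgeR unadjusted p = 0.0150, adjusted p = 0.544). Without TBT livers 2 and 4, 0 clock genes were at an unadjusted p below 0.05 in either direction and the median was -0.22. The same pair held the highest values of the cyclins Ccnd1 (29.2 and 19.95 CPM against 7.58 to 14.4 in VEH liver and 10.0 to 14.1 in the other TBT livers) and Ccne1 (1.29 and 1.68 against 0.109 to 0.634 and 0.319 to 0.571).

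The E-box letters CACGTG, which ARNTL and CLOCK bind, stood on either strand in 5 of the 17 clock genes with a RefSeq window and in 3 of the 8 of these at an unadjusted p below 0.05, against 7.15% of all windows. The D-box letters TTATGNAA were in 2 of 17 (3.38% of all windows) and the RORE letters NTAGGTCA in 2 of 17 (2.59%). Here too a gene counted when any of its windows matched, whereas the percentages are shares of single windows. Ciart, a repressor of the loop, was at 1.58 and 2.27 CPM in TBT livers 2 and 4 and at 0.261 to 0.476 in the other 3, while Cry1 had the opposite order. Both windows are shown, for 250 bases before the start, with CACGTG in capitals.
Ciart, chr3:95882229-95882478, minus strand: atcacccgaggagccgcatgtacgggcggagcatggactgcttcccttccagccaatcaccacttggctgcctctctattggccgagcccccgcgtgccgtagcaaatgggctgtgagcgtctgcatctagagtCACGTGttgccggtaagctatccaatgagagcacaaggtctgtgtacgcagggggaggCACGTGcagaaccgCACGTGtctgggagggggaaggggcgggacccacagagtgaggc
Cry1, chr10:85185055-85185304, minus strand: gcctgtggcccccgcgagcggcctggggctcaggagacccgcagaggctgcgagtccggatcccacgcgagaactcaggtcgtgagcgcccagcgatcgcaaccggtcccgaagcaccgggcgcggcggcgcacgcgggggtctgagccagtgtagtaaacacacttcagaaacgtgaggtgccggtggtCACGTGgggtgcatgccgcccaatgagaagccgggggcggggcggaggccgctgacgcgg

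**Figure D4:**
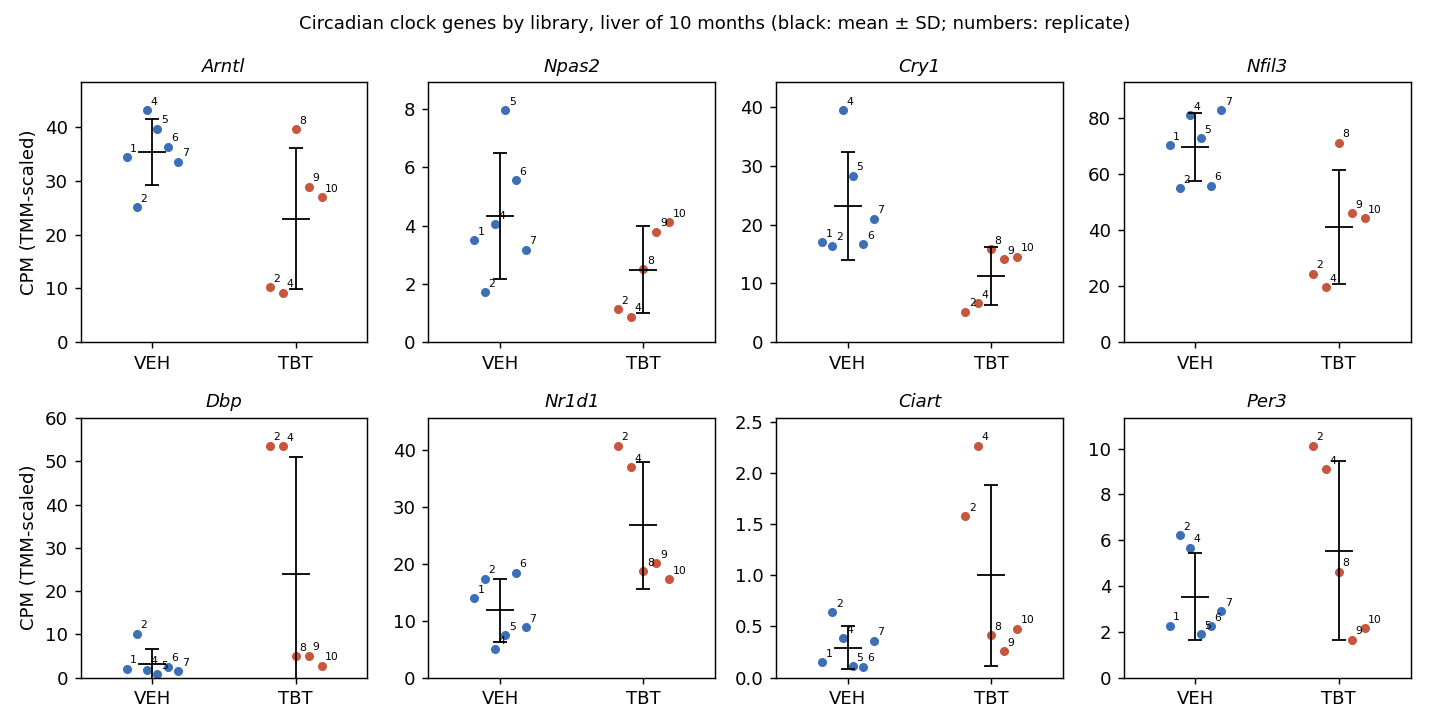
TMM-scaled CPM of 8 clock genes in each VEH (blue) and TBT (red) liver of 10 months, with replicate numbers, the mean and the SD in black. TBT livers 2 and 4 stand apart from the other 9 libraries: Dbp is at 53.6 and 53.5 against 0.852 to 10.2, and Arntl at 10.2 and 9.21 against 25.2 to 43.2.

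Clock genes such as Arntl, Per3 and Dbp passed edgeR's adjusted threshold between the arms at 5 months with all 22 liver libraries. No clock gene did so at 10 months, and none differed between the ages at that threshold. In the fit of the 22 liver libraries, the contrast of TBT with VEH liver for Arntl was -2.28 (SE 0.396) at 5 months and -0.63 (SE 0.361) at 10 months. The difference between the ages was 1.65 (SE 0.536; edgeR unadjusted p = 0.00594, adjusted p = 0.373). Per3 had the contrasts 2.86 and 0.63, a difference of -2.23 (edgeR unadjusted p = 0.00699, adjusted p = 0.383). Dbp had 3.55 and 2.89, a difference of -0.66 (edgeR unadjusted p = 0.571). Nr1d1 went the other way in size, with 0.40 at 5 and 1.16 at 10 months (edgeR unadjusted p = 0.161 for the difference), as did Cry1 with -0.44 and -1.04 (edgeR unadjusted p = 0.244). Without the 4 libraries of 5 months that stand apart, the 5-month contrast was -2.14 for Arntl, 2.98 for Per3 and 3.45 for Dbp, and the edgeR adjusted p for these went from 0.0148, 0.0150 and 0.0339 to 0.0814, 0.0735 and 0.159.

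Pparg and Rxra, which encode receptors that TBT is known to bind, had intervals that included no difference. Pparg was at 11.4, 14.8, 9.20, 13.7 and 21.8 CPM in TBT liver against 6.28, 12.0 and 20.8 in VEH liver, a log2 difference of 0.23 (95% interval -0.45 to 0.90). Rxra was at 596, 566, 468, 496 and 437 CPM against 391, 471 and 512, a log2 difference of 0.16 (95% interval -0.06 to 0.39). For neither receptor did the arms separate, although TBT livers 2 and 4 held the highest Rxra values. The wider interval of Pparg still allows a difference of up to 1.87-fold upward.

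Of 22 tested PPARG target and lipid droplet genes, 1 was higher at an unadjusted p below 0.05 (Pnpla2, the adipose triglyceride lipase) and 0 were lower, with a median of 0.10. The shares over all genes were 4.6% and 3.19%. Cidec, a lipid droplet protein that PPARG induces in fatty liver, was at 3.70, 8.11, 1.5, 5.71 and 10.4 CPM against 1.19, 3.86 and 4.40 in VEH liver, so TBT livers 4, 9 and 10 lay above the VEH range. Its log2 difference was 0.82 (95% interval -0.19 to 1.83; edgeR adjusted p = 0.708). Cidea was at 6.51 CPM in TBT liver 10 and at 0.0751 to 1.53 in the other TBT livers, against 0.185 to 4.09 in VEH liver. Fabp4 and Cd36 differed by 0.31 and 0.27 (edgeR adjusted p = 0.713 and 0.936).

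RXR partner receptors and their targets gave no difference at the adjusted threshold. Of 19 partner receptors, Rara (0.19) and Nr1h2 (0.16) were higher and Nr1h4, the bile acid receptor, lower (-0.24) at an unadjusted p below 0.05. These were 10.5% and 5.26% of the list, against 4.6% and 3.19% of all genes. Nr1h4 was at 124, 119, 128, 124 and 124 CPM in TBT livers and 122, 143 and 175 in VEH liver, a narrow group against a wide one. Of 19 targets of the oxysterol receptors and retinoids, Abcg8, which with Abcg5 forms the sterol exporter, and Tgm2, a retinoid-induced transglutaminase, were higher by 0.22 and 0.24, and 0 were lower. The higher ones were 10.5% of the list, against 4.6% of all genes.

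Lipid synthesis genes spread widely within both arms. Fasn, fatty acid synthase, was at 981, 1288, 668, 575 and 1781 CPM in TBT livers against 165, 945 and 2731 in VEH liver, and its 95% interval ran from -1.62 to 1.43 on the log2 scale. Fatty acid and triglyceride synthesis (22 tested), cholesterol synthesis (22) and fatty acid oxidation (24) had 0 members at an unadjusted p below 0.05, with medians of -0.06, -0.04 and -0.09. Among bile acid genes, Slco1a1 and Slco1b2, which take up bile acids, were lower by 0.32 and 0.20 on the log2 scale. These 2 of 20 were 10% of the list, against 3.19% of all genes. Cyp7a1, the rate-limiting enzyme of bile acid synthesis, was at 217, 152, 71.3, 70.6 and 62.9 CPM against 59.1, 146 and 299.7, with full overlap.

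Of 19 tested genes of foreign compound metabolism, 3 (15.8%) were lower at an unadjusted p below 0.05 and 0 were higher, with a median of -0.19. The shares over all genes were 3.19% and 4.6%. Cyp2c29, a cytochrome P450 induced through the receptor CAR, was at 639, 615, 749, 822 and 797 CPM in TBT livers against 796, 1012 and 1326 in VEH liver. Livers 9 and 10 lay just inside the VEH range. The log2 difference was -0.50 (SE 0.128; edgeR unadjusted p = 0.0018). Aldh1a1, which makes retinoic acid and is a pericentral gene, was at 971, 1162, 1515, 1473 and 1701 CPM against 1599, 1729 and 2879, a log2 difference of -0.58 (SE 0.191). Other pericentral genes that were lower were Lect2 (-0.21) and Rhbg (-0.64), 3 of 20 with Aldh1a1 (15%, against 3.19% of all genes). Glul, the pericentral marker next to the vein, was at 751 to 1196 CPM in TBT and 877 to 1329 in VEH liver. The hepatocyte identity list had 0 of 22 at an unadjusted p below 0.05 and a median of -0.10.

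Genes of liver tumours gave no difference at the adjusted threshold. Ly6d, a surface protein high in the adenomas, was at 0.965, 1.5, 3.98, 1.45 and 2.25 CPM in TBT livers against 0.709, 0.873 and 1.85 in VEH liver. TBT livers 8 and 10 lay above all VEH livers. TBT less VEH gave a log2 difference of 0.94 (SE 0.362; edgeR unadjusted p = 0.0216, adjusted p = 0.569). On the scale of all 29 libraries Ly6d was at most 4.16 CPM in TBT liver and at least 16.9 in adenoma. Hmga1, an architectural chromatin protein of embryonic and tumour cells, was at 9.07, 7.82, 7.29, 6.41 and 7.21 CPM against 4.93, 5.66 and 6.13, with no overlap.

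Other tumour markers gave no such separation. Afp, fetal albumin, was at 1.80 to 2.67 CPM in TBT and 1.61 to 2.50 in VEH liver (log2 difference 0.06, 95% interval -0.27 to 0.39). Mki67, made by dividing cells, was at 1.92 to 4.79 CPM in TBT and 1.17 to 6.75 in VEH liver (0.13, 95% interval -0.71 to 0.96). Of 25 tested tumour genes, 3 were higher (Hmga1, Ly6d and Ddr1) and 1 lower (Sox9) at an unadjusted p below 0.05, with a median of 0.14. These were 12% and 4% of the list, against 4.6% and 3.19% of all genes. Of 33 cell cycle genes, the 2 higher ones (6.06%, against 4.6% of all genes) were Ccnd1 and Ccne1, and the median was -0.01.

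Red cell genes had the lowest median of any list with 8 or more tested members, at -0.60. Of 8 tested members, 1 (12.5%) was lower at an unadjusted p below 0.05, against 3.19% of all genes. That gene, Alas2, the first enzyme of heme synthesis in red cells, was at 105, 111, 117, 108 and 81.2 CPM against 116, 129.8 and 143 in VEH liver, and TBT liver 8 lay inside the VEH range. Hba-a1, an alpha globin, was at 5.40, 16.9, 23.8, 11.8 and 41.3 CPM against 13.2, 26.8 and 79.0, with wide overlap. Globin levels in whole liver include the blood left in the sample, and the alpha globin genes share reads.

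The widest variation in the 11 livers ran across the arms. Component 1 of a principal component analysis of the 500 most variable genes held 25.2% of the variance, and component 2 held 16.6%. The exact permutation test of the arms gave p = 0.496 for component 1 and p = 0.281 for component 2 (two-sided, adjusted p = 0.496 and 0.328). At the positive end of component 1 were VEH liver 4 and TBT liver 8, and at the negative end TBT liver 10, VEH liver 6 and TBT liver 4. Moxd1, a monooxygenase-like gene, was at 184, 0.329, 268, 5.22 and 0.762 CPM in the TBT livers, so it spanned its range within 1 arm. Saa1, an acute phase protein, was at 845, 184, 382, 16.4 and 29.6 CPM against 10.7, 43.1 and 490.0 in VEH liver. Of 29 acute phase genes, 0 were at an unadjusted p below 0.05.

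**Figure D5:**
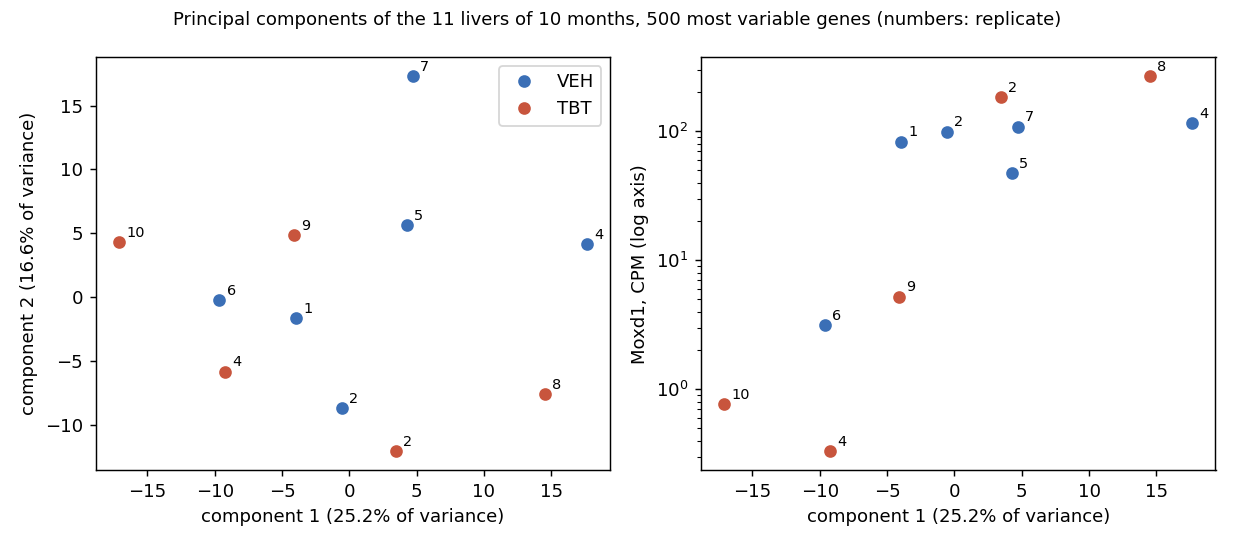
Left, scores of the 11 livers of 10 months on components 1 and 2 (25.2% and 16.6% of the variance of the 500 most variable genes). Right, component 1 against Moxd1 CPM on a log axis. TBT (red) and VEH (blue) livers mix along component 1, and Moxd1 runs from 0.329 to 268 CPM among TBT livers.

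The 10-month contrast did not differ from the 5-month contrast for any of 13055 genes at the adjusted threshold (0%) in edgeR, where 1139 genes (8.72%) had an unadjusted p below 0.05. DESeq2 passed 44 genes. At 5 months 265 genes (2.03%) passed edgeR's adjusted threshold, and 47 did so without the 4 libraries of that age that stand apart. The difference between the ages then had 1482 genes at an unadjusted p below 0.05 and 0 at the adjusted threshold. Of the 265, 259 were tested among the 10-month livers. Of these, 159 had the same sign there, 24 had the same sign with an unadjusted p below 0.05, and 0 had an interaction past the adjusted threshold. Over all genes tested at 10 months, 7.8% were at that p in either direction, and 52.7% had a positive difference. The share of all genes with the same sign at both ages was not computed, nor were these counts made for the 47.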

How the data were processed

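The deposited file holds whole-number read counts per coding gene, made by the authors and not normalised, and every column matched 1 sample by its name. The submitters' processing notes name mm10 as the genome build and list HISAT2, featureCounts, edgeR, FastQC and Trim Galore as tools. The sources used here do not give their versions, order, annotation release or strand setting, so values of overlapping, antisense and near-identical genes are uncertain. The table lists 22028 genes, and 27 symbols that stood as dates were looked up again by gene identifier. Gene positions count from 1 and are those of GENCODE on GRCm38, and promoter windows come from RefSeq (GRCm38.p6).

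R 4.3.3 with edgeR 4.0.16 was used for the tests. The filter on low genes was filterByExpr (at least 10 counts, total at least 15), TMM set the library scale, and robust quasi-likelihood fits gave two-sided p-values, adjusted by Benjamini-Hochberg over all tested genes, with a threshold of 0.05. Levels are TMM-scaled CPM within the fit of 11 libraries. Values on a scale of all 29 libraries are named as such. The 5-month contrast and the interaction came from 1 fit of the 22 liver libraries. Component scores and library measures were tested by exact permutation. Components used log2 CPM with a prior count of 2. The scripts were tested on simulated counts.

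The members and the 41 gene lists were chosen with earlier results of these data known, so lists are described by counts and medians, without a test. Named genes were the 20 with the smallest p whose mean reached 2 CPM in an arm and no predicted name, the 10 most variable of mean 10 CPM or more, the 4 members with the smallest p of each of the 6 lists (8 or more tested members) with the most extreme medians, and a short list of genes tied to the exposure, the clock, interferon and tumours. Other list members were named after their values were seen. Some genes are not reported here. No 2 libraries held identical counts (0 of 55 pairs). Alternatives were DESeq2 1.42.0, limma 3.58.1 (voom, with and without quality weights), other scaling and filters, wider fits, the mitochondrial share as a covariate, a replicate block and leaving out each library. Leaving out TBT livers 2 and 4 together, and giving the 5-month contrast without TBT livers 2 and 4 and VEH livers 4 and 6 of that age, were added after seeing the data.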

Additional observations from a re-analysis of the deposited data

Results flagged for a closer look

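Of 152 groups of 5 or 6 libraries examined, 10 held a library whose gap to its nearest neighbour was large for the range of its group, and chance gives about 1 in 20. In VEH liver these were Chic1 in liver 6 at 8.53 CPM (others 5.85 to 6.27), Dbp in liver 2 at 10.2 (others 0.852 to 2.54), Cyp4a14, a fatty acid hydroxylase, in liver 7 at 746 (others 18.2 to 172), and Onecut1, a hepatocyte transcription factor, in liver 5 at 24.6 (others 1.57 to 8.72). Liver 6 of the VEH arm also held the highest Rgs16, at 47.9 CPM (others 2.41 to 17.1), and liver 5 the highest Clock, at 138 (others 94.9 to 111). H2-Ab1 was apart in VEH liver 2 at 30.2 CPM (others 19.9 to 23.7), and the share of counts in the 50 most abundant genes in VEH liver 4 at 37.6% (others 35.8% to 36.4%). In TBT liver, Mup15 was apart in liver 9 at 144 CPM (others 7.86 to 42.9), and Cidea in liver 10 at 6.51 (others 0.0751 to 1.53).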

How the results depend on the processing

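For the 10-month contrast, no gene passed the adjusted threshold in edgeR or limma under the alternatives run, apart from Lars2 with the mitochondrial share as a covariate (1 gene, adjusted p = 0.0493). DESeq2 passed 16 genes, and 44 for the difference between ages. The 986 genes at an unadjusted p below 0.05 became 595 when the 3 groups of 10 months were fitted together, 218 in the fit of the 4 liver groups, 621 with the mitochondrial covariate and 534 without TBT livers 2 and 4. Higher and lower genes were then 337 and 258, 108 and 110, 372 and 249, and 284 and 250, in that order. The cause of each change given here was not tested unless stated.

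In the fit of 3 groups, members at an unadjusted p below 0.05 were 8 for interferon, 4 for male-biased, 7 for stellate and 0 for macrophage genes. In the fit of 4 groups they were 8 for interferon and 3 (higher) for clock genes, and 0 for macrophage, male-biased, mitochondrially encoded and stellate genes. With the mitochondrial covariate they were 5 for interferon, 3 for male-biased, 5 for mitochondrially encoded, 2 higher and 1 lower for clock, and 0 for stellate and macrophage genes. The list medians were 0.41 for cholesterol synthesis and 0.036 for p53 targets. That covariate is the summed share of the mitochondrially encoded genes themselves, so their count is adjusted for their own sum. The share also differed between the arms (means 1.38% in TBT and 1.58% in VEH liver), so the covariate takes up part of the contrast. Signs turned for Fasn (0.56), Scd1 (0.29), Saa1 (-0.70) and Saa2 (-0.77).

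With limma-voom 3 clock genes were higher, and with quality weights 3 higher and 5 lower and 1 macrophage gene. Signs turned, without and with weights, for Cidea (-0.54 and -0.11), Cyp4a14 (0.22 and 0.67), Fasn (0.40 and 0.19) and Moxd1 (-2.46 and -3.30). With the stricter filter 3 clock genes were higher, and without a filter the median of exocrine pancreas genes was 1.51. Median-of-ratios scaling moved the split of genes at an unadjusted p below 0.05 from 582 higher and 404 lower to 534 and 455.

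Without TBT livers 2 and 4, genes whose arms did not overlap were 136 higher and 136 lower, since fewer libraries have to be separated. Stellate genes were 3, and macrophage and clock genes 0. Medians were 0.21 for cholangiocyte, -0.22 for clock and -0.27 for pericentral genes. Signs turned for Cyp4a14 (0.15), Fabp5 (-0.31), Igfbp1 (0.46), Mki67 (-0.047), Per3 (-0.35) and Tef (-0.20).

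The arms share only the numbers 2 and 4, and same-numbered livers did not deviate together (correlations 0.06 and -0.11). So few correlations cannot show whether the numbers pair the samples, and the labels do not say so. The replicate block rests on those 4 livers. It gave 0 genes at the adjusted threshold, and 535 genes at an unadjusted p below 0.05 for the difference between ages. Members at an unadjusted p below 0.05 were 10 for macrophage, 9 (higher) for clock and 4 for mitochondrially encoded genes. Its medians were 0.62 for B cell, 0.27 for CDC42 effector, 0.36 for macrophage, -0.066 for MHC class II, 0.67 for adipocyte, -0.27 for bile acid, 0.28 for endothelial, 0.50 for exocrine pancreas, 0.59 for interferon, 0.48 for intestine, 0.33 for tumour, -0.50 for mitochondrially encoded, 1.03 for neutrophil, -0.17 for nuclear oxidative phosphorylation, 0.036 for p53, 0.50 for stellate and -0.39 for foreign compound genes. With the block, signs turned for Afp (-0.015), Cidea (-0.98), Cyp4a14 (0.73), Fasn (0.60), Glul (0.12), H2-Ab1 (-0.094), H2-DMb1 (-0.090), Hsd3b5 (0.079), Moxd1 (-2.61) and Scd1 (0.44).

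Leaving out each library in turn gave 0 genes at the adjusted threshold in all 11 refits, with 676 to 1265 genes at an unadjusted p below 0.05. Non-overlapping genes were 68 to 138 higher and 57 to 172 lower. Members were 1 to 8 for macrophage, 2 to 6 higher and 2 to 6 lower for clock, and 5 to 10 for male-biased genes. Medians ran from -0.049 to 0.18 for cholangiocyte, -0.19 to 0.19 for exocrine pancreas and -0.053 to 0.30 for stress genes. The exact permutation p ran from 0.143 to 0.819 for component 1, whose sign turned in 1 refit, and from 0.00794 (without VEH liver 7) to 0.0905 for the mitochondrial share. For the difference between ages, 0 to 1 genes passed and 940 to 1717 had an unadjusted p below 0.05. Log2 fold changes ran from -0.019 to 0.13 for Afp, -0.38 to 0.49 for Cd36, -1.44 to 0.91 for Cidea, -0.61 to 1.01 for Cyp4a14, -0.37 to 0.39 for Fasn, -0.34 to 0.13 for Hsd3b5, -0.69 to 0.27 for Igfbp1, -0.042 to 0.48 for Mki67, -0.69 to 0.59 for Moxd1 and -0.33 to 0.091 for Scd1.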

Other observations

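Lists that the text above does not describe held few members at an unadjusted p below 0.05. The shares over all genes were 4.6% higher and 3.19% lower. Stress response genes had 1 higher and 1 lower of 23, NRF2 targets 1 higher of 22, p53 targets 0 of 17, immediate early genes 0 of 17, and glycolysis and gluconeogenesis 1 higher of 22. Periportal hepatocyte genes had 0 of 21 and liver endothelial genes 1 higher of 22 (Bmp2). Effectors of CDC42 had 1 higher of 10, which was Cdc42ep1. Short lists had larger shares: neutrophil genes 1 higher of 4 (25%), exocrine pancreas 1 higher of 3 (33.3%) and intestine 1 higher of 5 (20%). Cholangiocyte genes had 1 higher and 1 lower of 9 (11.1% each), and B cell and plasma cell genes 1 lower of 9 (11.1%). Adipocyte genes had 0 of 7, HMG chromatin protein genes 1 higher of 10, and lysosomal enzymes 1 higher and 1 lower of 26.

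S100a8, a neutrophil alarmin, was at 1.38, 0.621, 1.20, 0.841 and 1.46 CPM in TBT livers 2, 4, 8, 9 and 10, against 0.338, 0.743 and 0.944 as lowest, median and highest in VEH liver. Ly6g, the defining neutrophil marker, was at 0 in all 11 libraries, and the summed level of the neutrophil list was 5.22 to 9.58 CPM in TBT and 2.80 to 6.79 in VEH liver. Cela2a, a pancreatic elastase gene, was at 0.997, 0.365, 0.826, 0.841 and 1.08 CPM in TBT livers against 0.0402, 0.283 and 0.559, with TBT liver 4 inside the VEH range. Its log2 difference was 1.44 (SE 0.411; edgeR unadjusted p = 0.0029). Of the 3 tested exocrine pancreas genes, only Cela2a had a positive difference and 2 were negative, with a median of -0.13. The summed level of that list was 16.7 to 28.5 CPM in TBT and 19.4 to 28.2 in VEH liver. Amy2a5, of the same list, was at 0 in all 11 libraries.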
